A study of Mus musculus with 8 samples.

Results

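The genes described here are 9 components of the extracellular matrix of the brain: Bcan, Ncan, Vcan, Acan, Cspg5, Ptprz1, Tnc, Tnr and Hapln1. They were taken by name as a family of neural matrix proteoglycans and tenascins, and all 9 were found among 20512 named genes with exon values and 18655 with intron values. RNA was compared between mouse embryonic stem cells (ESC) and neural progenitor cells (NPC) made from them. The ESC line, F1-21.6, is a hybrid of background 129Sv-Cast/EiJ that was kept on inactivated embryonic fibroblast feeders with serum and leukaemia inhibitory factor. The NPC were 1 clone obtained from that line by neural differentiation, so both groups share the same hybrid genome and a clone effect cannot be told apart from a cell type effect. Each cell type had 2 biological replicates with 2 technical libraries each, and total RNA was sequenced after removal of ribosomal RNA. The labels do not say that the replicates were separate cultures, so the p-values measure only the spread between these samples. The authors' exon p-values were computed over all libraries. Whether technical libraries were counted there as replicates is not stated in the sources used here.

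Proteoglycans are core proteins that carry sulfated sugar chains. The lecticans aggrecan (Acan), brevican (Bcan), neurocan (Ncan) and versican (Vcan) carry chondroitin sulfate, bind hyaluronan with their amino-terminal end and bind tenascins with their lectin-like end. Link proteins such as Hapln1 fasten lecticans to hyaluronan, and tenascin-R (Tnr) and tenascin-C (Tnc) crosslink them. Ptprz1 is a receptor tyrosine phosphatase of glia and neural progenitors that bears chondroitin sulfate itself, and its secreted splice form is known as phosphacan. Cspg5, neuroglycan C, is a transmembrane proteoglycan with an EGF-like domain. This matrix surrounds neural stem cells in the embryo and later forms perineuronal nets.

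The core proteins differ widely in size, and some genes have several coding forms that gene-level values cannot separate. In the GENCODE M21 annotation of build GRCm38, the longest coding form has 883 amino acids in Bcan, 1268 in Ncan, 2132 in Acan and 3354 in Vcan. Vcan has 5 coding transcripts in the basic set, with proteins of 368 to 3354 residues. Ptprz1 has 3, and its 2312-residue receptor stands beside forms of 1612 and 1463 residues. Tnc reaches 2110 residues, Tnr 1358, Cspg5 569 and Hapln1 356.

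The windows around the start sites are shown for Bcan, Ptprz1, Ncan and Tnc, the genes with the highest exon levels in NPC, to set their promoter sequence beside their levels. RefSeq windows of build GRCm38.p6 run from 250 bases before to 50 after a start site, and 8 of the 9 genes have one. Capitals mark matches on either strand to the GC box GGGCGG, the TATA box TATAAA and the POU octamer ATGCAAAT, which do not overlap each other here. Each sequence is written 5′ to 3′ on the strand of its gene.
Bcan, chr3:88000307-88000606, minus strand: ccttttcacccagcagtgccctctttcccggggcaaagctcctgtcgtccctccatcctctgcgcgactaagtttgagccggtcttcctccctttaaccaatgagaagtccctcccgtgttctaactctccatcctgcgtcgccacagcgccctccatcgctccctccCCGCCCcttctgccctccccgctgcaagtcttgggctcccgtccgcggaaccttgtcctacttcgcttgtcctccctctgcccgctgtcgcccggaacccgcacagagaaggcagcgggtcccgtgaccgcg
Ptprz1, chr6:22875252-22875551, plus strand: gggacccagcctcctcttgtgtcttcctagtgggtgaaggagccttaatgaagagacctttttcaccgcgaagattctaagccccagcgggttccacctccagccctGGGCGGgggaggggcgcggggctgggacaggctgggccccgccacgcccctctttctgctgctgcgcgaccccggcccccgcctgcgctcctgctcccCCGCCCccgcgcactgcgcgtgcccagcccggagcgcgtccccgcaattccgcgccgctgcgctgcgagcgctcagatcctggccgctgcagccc
Ncan, chr8:70120795-70121094, minus strand: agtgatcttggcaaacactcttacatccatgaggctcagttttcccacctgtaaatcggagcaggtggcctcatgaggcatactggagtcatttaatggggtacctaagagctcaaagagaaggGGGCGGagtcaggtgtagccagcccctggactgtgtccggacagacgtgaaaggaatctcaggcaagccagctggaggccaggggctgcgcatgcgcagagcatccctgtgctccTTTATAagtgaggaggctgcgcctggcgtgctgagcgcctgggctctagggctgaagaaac
Tnc, chr4:64046887-64047186, minus strand: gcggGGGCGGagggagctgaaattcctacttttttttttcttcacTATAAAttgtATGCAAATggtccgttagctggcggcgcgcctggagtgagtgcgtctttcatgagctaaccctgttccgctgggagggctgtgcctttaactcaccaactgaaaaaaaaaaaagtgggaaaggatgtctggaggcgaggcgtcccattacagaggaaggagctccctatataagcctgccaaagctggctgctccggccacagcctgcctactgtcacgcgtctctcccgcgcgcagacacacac

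The 4 windows differed in their CG pairs and matches. Those of Bcan and Ptprz1 held 24 and 29 CG pairs, above the upper quartile of 20 over all 32851 RefSeq windows of this length, and no TATAAA. The Ncan window held 9 CG pairs and 1 TATAAA. The Tnc window held 16 CG pairs, 1 TATAAA and 1 ATGCAAAT, and a second Tnc window that shares most of its bases held the same matches. Of all windows, 35.7% held GGGCGG, 13.6% TATAAA and 1.74% ATGCAAAT, on either strand. Acan, which did not follow the other lecticans in exons, had the most CG pairs of the 8 genes (31). Tnr and Hapln1 had 3 each, and Vcan 12. A match describes these letters only, wherever they lie in the window. Its distance from the start site was not assessed, so a match to TATAAA need not be a working TATA box.

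In exons, Bcan, Ncan, Vcan, Tnc, Tnr, Ptprz1 and Cspg5 were higher in NPC and Acan was lower. Exon levels are the RPKM (reads scaled by exon length and by sequencing depth) that the authors combined across the libraries of each cell type, so they carry no replicate spread. Of the 9 genes, 8 had a mean of at least 1 RPKM over the cell types and an adjusted p in the authors' deposited table. At an adjusted p below 0.05, 7 were called higher in NPC there and 1 lower. Over all 12509 tested genes, 32.3% were called higher and 33.9% lower, with a median log2 fold change of -0.07. A gene can pass the filter through 1 cell type alone, as Bcan, Ptprz1 and Tnr did through NPC and Acan through ESC. These counts, and the exon counts of the lists below, were thus partly set by the filter. In a bulk sample, fewer cells of a type and less RNA per cell cannot be told apart.

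**Figure D1:**
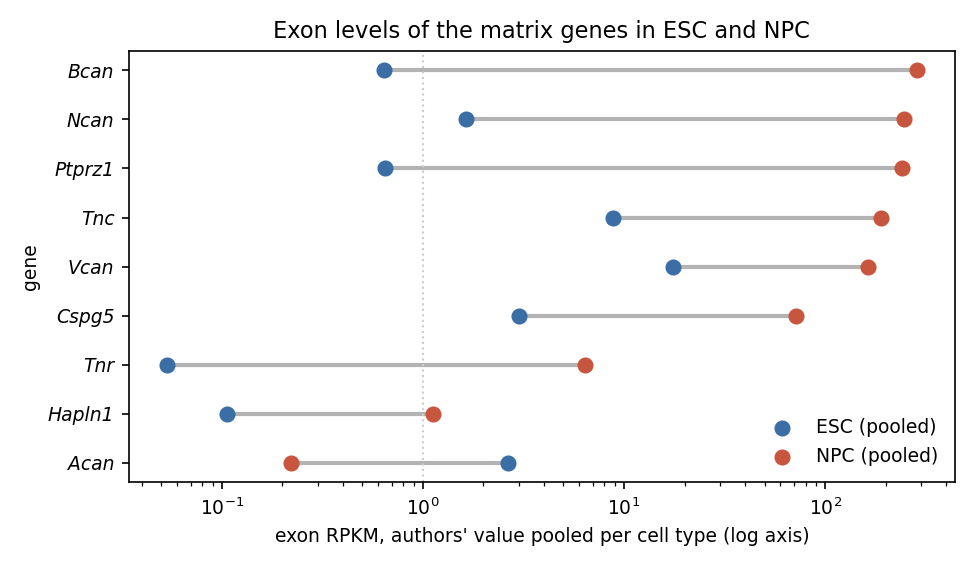
Exon RPKM of the 9 genes, as the authors pooled it per cell type, on a log axis. Blue points are ESC, red points NPC, the grey line joins the values of 1 gene, and the dotted line stands at 1 RPKM. NPC lies to the right for every gene except Acan.

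Among the lecticans, Bcan was at 0.640 RPKM in ESC against 287 in NPC. Its log2 fold change in the authors' deposited table was 8.65 (adjusted p = 5.16e-203), and only 19 of the 12509 tested genes had a larger one. Ncan was at 1.64 RPKM in ESC against 247 in NPC, a log2 fold change of 7.11 in the authors' deposited table (adjusted p = 2.68e-150). Vcan, the lectican of loose and embryonic tissues, was already present in ESC. It was at 17.5 RPKM there and at 164 in NPC, a log2 fold change of 3.09 in the authors' deposited table (adjusted p = 1.8e-42). Acan, the proteoglycan of cartilage and of perineuronal nets, was at 2.64 RPKM in ESC against 0.221 in NPC. Its log2 fold change in the authors' deposited table was -3.76 (adjusted p = 5.32e-12), a fall from a level that was low to begin with. Acan passed the filter with a mean of 1.43 RPKM and drops out of the test when the mean must reach 10 RPKM.

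The mix of lecticans thus differed between the cell types. Their summed exon level was 22.4 RPKM in ESC against 699 in NPC, a ratio of 31.2. Vcan made up 78.0% of the ESC sum, Acan 11.8%, Ncan 7.32% and Bcan 2.86%. In NPC, Bcan made up 41.1%, Ncan 35.3% and Vcan 23.5%, while Acan was at 0.0316%. RPKM is scaled by exon length, so these shares compare transcripts rather than bases. They have no replicate error, because the exon values are pooled.

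**Figure D2:**
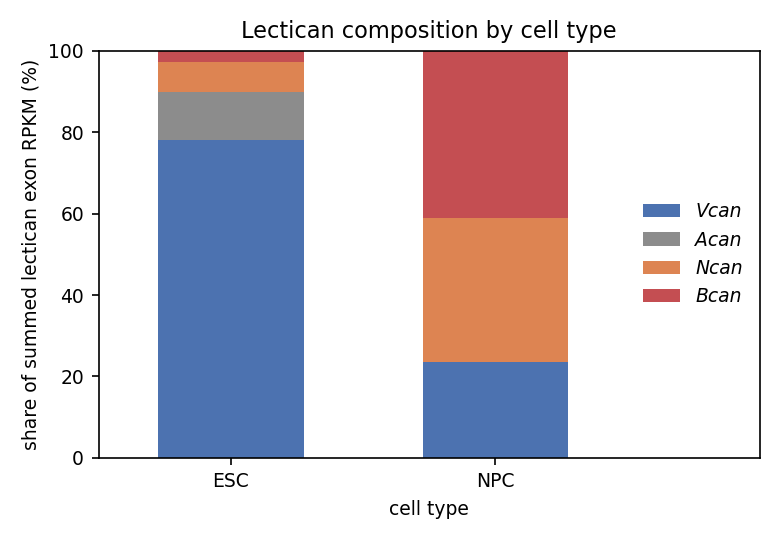
Share of each lectican in the summed exon RPKM of Vcan, Acan, Ncan and Bcan, in percent, for ESC and NPC. Each bar adds to 100%. Vcan fills 78.0% of the ESC bar and 23.5% of the NPC bar.

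The 2 proteoglycans outside the lectican family were higher in NPC as well. Ptprz1 was at 0.650 RPKM in ESC against 240.2 in NPC, with a log2 fold change of 8.39 in the authors' deposited table (adjusted p = 1.12e-238). Cspg5 was at 3.0 RPKM in ESC against 71.9 in NPC, with 4.42 in the authors' deposited table (adjusted p = 8.78e-66). The Ptprz1 value covers the receptor and the secreted phosphacan form together.

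Of the tenascins, Tnc, the form of embryonic and stem cell matrix, was at 8.86 RPKM in ESC against 189 in NPC. The authors' deposited table gave it a log2 fold change of 4.27 (adjusted p = 3.96e-68). Tnr, the tenascin of the later nervous system, was at 0.0532 RPKM in ESC against 6.41 in NPC, with 6.64 in the authors' deposited table (adjusted p = 7.52e-31). Tnr had the larger fold change in the authors' deposited table, from a very low ESC level, but the order turned on the scale of log2(RPKM + 1), with 2.81 for Tnr and 4.27 for Tnc. Tnr also had the lower level, as Tnc made up 96.5% of the summed tenascin RPKM in NPC and Tnr 3.26%. The other tenascins, Tnxb (0.107 and 0.0859 RPKM) and Tnn (1.20 and 0.411), were low in both and fell below the filter.

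Hapln1 stayed near the lower limit of what was tested. It was at 0.106 RPKM in ESC against 1.12 in NPC, a mean of 0.615 that did not reach the filter. Without the filter, its log2 fold change in the authors' deposited table was 2.86 (adjusted p = 0.00624). In NPC the 9 genes thus ordered by exon level as Bcan, Ncan, Ptprz1, Tnc, Vcan, Cspg5, Tnr, Hapln1 and Acan. The first 5 ranked 231, 296, 311, 454 and 566 among all named genes. In ESC the order began with Vcan, Tnc, Cspg5, Acan and Ncan, and Vcan ranked 5573. Whether neighbours in these orders differ cannot be judged from pooled values.

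Each lectican gene lies next to a link protein gene, and all 4 link protein genes were low in exons in both cell types. In the files' mm9 coordinates, the start sites of Bcan (chromosome 3, 87804278) and Hapln2 (87831433) are 27.2 kb apart. Those of Ncan (chromosome 8, 72644743) and Hapln4 (72607428) are 37.3 kb apart, and those of Acan (chromosome 7, 86198369) and Hapln3 (86275904) 77.5 kb. Vcan (chromosome 13, 89882117) and Hapln1 (89680241) are 202 kb apart. No other start site of the exon table lies between the partners of any pair.

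Beside the 287 RPKM of Bcan in NPC, Hapln2 was at 0.0399 RPKM in ESC against 0.167 in NPC (log2 fold change 0.94, adjusted p = 0.71 in the authors' deposited table). Hapln4, next to Ncan, was at 0.454 and 1.47 RPKM (1.54, adjusted p = 0.0762 in the authors' deposited table). Hapln3, next to Acan, was at 1.62 and 0.564 RPKM (-1.51, adjusted p = 0.228 in the authors' deposited table). Acan and Hapln3 were both low and both had the lower value in NPC; Hapln3 had a mean above 1 RPKM and was not called. Hapln2 and Hapln4 did not reach the filter. The 4 link proteins summed to 2.22 RPKM in ESC against 3.33 in NPC, against 22.4 and 699 for the lecticans.

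Introns gave the comparison with replicates. Intron values are RPKM per biological replicate, with the unit inferred from the values, and whole read numbers could be recovered from them. The NPC replicates differed from each other. Over the 8811 tested genes, the median ratio of replicate 2 over replicate 1 was 1.55. Over all 18655 named genes, the median level was instead higher in NPC replicate 1 (1.12 RPKM) than in replicate 2 (0.712). NPC replicate 1 also carried intron signal over genes that neither cell type is known to use. Over 242 olfactory, vomeronasal and taste receptor genes, the median in replicates 1 and 2 was 0.0295 and 0 RPKM for ESC, and 0.748 and 0.0829 for NPC. Intron values near 1 RPKM in NPC replicate 1 are therefore given below with that level beside them.

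Bcan introns (7287 bases between 87791890 and 87804024) were at 0.119 and 0.211 RPKM in ESC, giving replicate 1 first here and below, against 18 and 53.2 in NPC. These values rest on 5, 10, 758 and 2009 reads. Both NPC replicates were far above both ESC replicates, and replicate 2 was 2.96 times replicate 1. Ptprz1 introns (164820 bases between 22825885 and 23001971) were at 0.135 and 0.119 RPKM in ESC against 4.35 and 9.87 in NPC, from 128, 128, 4153 and 8438 reads. Ncan introns (20594 bases between 72620350 and 72644626) were at 0.244 and 0.0747 RPKM in ESC against 2.66 and 4.88 in NPC. For both genes, all NPC values lay above the receptor-gene medians.

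Tnc introns (75947 bases between 63621578 and 63707782) were at 0.237 and 0.128 RPKM in ESC against 3.25 and 5.61 in NPC. The start site that the exon table lists for Tnc, 63681759, lies inside this intron span. Vcan introns (65022 bases between 89796964 and 89881677) were at 1.38 and 1.53 RPKM in ESC against 3.36 and 8.30 in NPC. Vcan was the only one of the 9 with ESC introns above 1 RPKM, as it was the highest of them in ESC exons.

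**Figure D3:**
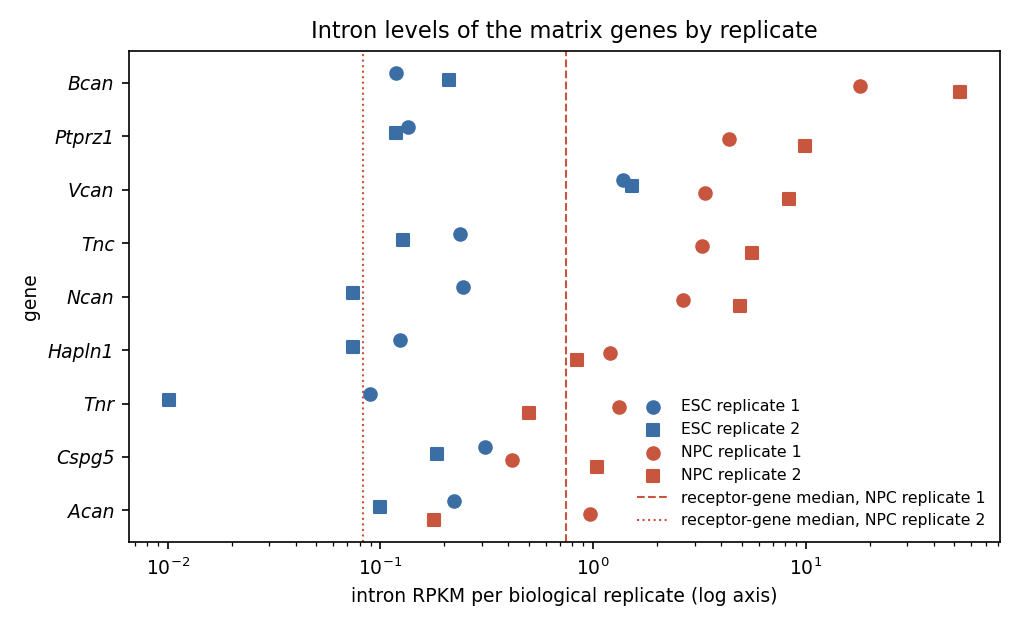
Intron RPKM of the 9 genes in each biological replicate, on a log axis. Circles are replicate 1 and squares replicate 2, blue for ESC and red for NPC. The broken and dotted lines are the medians of 242 receptor genes in NPC replicates 1 and 2 (0.748 and 0.0829 RPKM). Bcan, Ptprz1, Vcan, Tnc and Ncan lie right of both lines in NPC, and Acan lies near the line of its replicate.

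These 5 genes had a mean intron level of at least 1 RPKM and were tested with limma on log2(RPKM + 1), a scale that understates the change of low genes. All 5 were called higher in NPC, against 13.2% of the 8811 tested genes called higher and 34.0% called lower. A gene can pass the filter through NPC alone, so this count was partly set by the filter. The median intron log2 fold change of all tested genes was -0.43, and -0.05 with the columns scaled to the same median. That scaling moved the share of calls that were higher from 28.0% to 49.3%, and the 5 genes were called higher under it too.

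Bcan introns were at 0.165 ± 0.0651 RPKM in ESC against 35.6 ± 24.9 in NPC (SD, n = 2 each), a limma log2 fold change of 4.78 (SE 0.492, adjusted p = 4.4e-05). Ptprz1 was at 0.127 ± 0.0107 and 7.11 ± 3.90 RPKM (SD, n = 2 each), with 2.76 in limma (SE 0.286, adjusted p = 4.4e-05). Tnc was at 0.183 ± 0.0777 and 4.43 ± 1.66 RPKM (SD, n = 2 each), with 2.17 in limma (SE 0.224, adjusted p = 4.4e-05). Ptprz1 and Tnc were called under all 15 alternatives of the intron fit. Ncan was at 0.159 ± 0.120 and 3.77 ± 1.57 RPKM (SD, n = 2 each), with 2.00 in limma (SE 0.230, adjusted p = 7e-05). Vcan was at 1.45 ± 0.10 and 5.83 ± 3.49 RPKM (SD, n = 2 each), with 1.38 in limma (SE 0.337, adjusted p = 0.0061).

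The Bcan and Vcan calls depended on the ESC replicates. Without ESC replicate 1 or 2, limma gave Bcan adjusted p = 0.0591 or 0.0517 at fold changes of 4.73 and 4.84, and Vcan adjusted p = 0.288 or 0.244 at 1.33 and 1.42. In those fits the spread came from the NPC replicates alone. Vcan also missed the threshold with no mean-variance trend (adjusted p = 0.0503) and with the receptor-gene level subtracted (adjusted p = 0.0716), and it was at 1.92 without NPC replicate 1 and 0.83 without NPC replicate 2. Over all alternatives, the adjusted p ran from 3.12e-17 to 0.0616 for Bcan and from 0.00014 to 0.288 for Vcan. With a pseudocount of 0.1, the limma log2 fold changes were 6.89 for Bcan, 4.88 for Ptprz1, 3.98 for Tnc, 3.92 for Ncan and 1.80 for Vcan.

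The order of intron levels was Bcan, Ptprz1, Vcan, Tnc and Ncan in both NPC replicates. Bcan lay above the rest in each replicate, and its lower value (18) exceeded the higher value of Ptprz1 (9.87). The replicate ranges of Ptprz1, Vcan, Tnc and Ncan overlapped one another, while all 4 were higher in replicate 2 and kept their order within each replicate; the differences among them were not tested. In exons Ncan stood above Ptprz1, Tnc and Vcan, and in introns below them.

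The other 4 genes had a mean intron level below 1 RPKM and were not in that test. Tnr has the longest introns (395759 bases between 161454347 and 161854224 on chromosome 1), and these were at 0.0898 and 0.0101 RPKM in ESC against 1.32 and 0.499 in NPC. The values rest on 205, 26, 3024 and 1025 reads. Unlike the 5 genes above, Tnr was higher in NPC replicate 1 than in replicate 2. After subtraction of the receptor-gene medians, its NPC values were 0.571 and 0.416 RPKM. With the filter lowered to a mean of 0.1, limma gave a log2 fold change of 0.83 (SE 0.289, adjusted p = 0.030), and with no filter adjusted p = 0.072.

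Hapln1 introns (66142 bases between 89680518 and 89747464) were at 0.123 and 0.0744 RPKM in ESC against 1.20 and 0.837 in NPC. With the receptor-gene medians subtracted, the NPC values were 0.453 and 0.754. With the filter at a mean of 0.1, limma gave 0.87 (SE 0.248, adjusted p = 0.0074), and with no filter adjusted p = 0.028. Cspg5 has 4997 bases of introns in the table, between 110153652 and 110158648 on chromosome 9. They were at 0.312 and 0.185 RPKM in ESC against 0.415 and 1.04 in NPC, from 9, 6, 12 and 27 reads. NPC replicate 1 lay below its receptor-gene median, at a level that 75.2% of those genes reached. With the filter at a mean of 0.1, Cspg5 was at 0.45 (SE 0.264, adjusted p = 0.22 in limma), beside its 24.0-fold ratio of exon RPKM.

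Acan, which was lower in NPC exons, showed no clear direction in introns. Its introns (54148 bases between 86198495 and 86259085) were at 0.221 and 0.0994 RPKM in ESC against 0.966 and 0.178 in NPC, so the groups overlapped. Of the receptor genes, 26.9% were at or above the Acan level in NPC replicate 1 and 22.3% in replicate 2. After subtraction of the receptor-gene medians, the 4 values were 0.191, 0.0994, 0.218 and 0.0951 RPKM. With the filter at a mean of 0.1, limma gave 0.39 (SE 0.331, adjusted p = 0.38). The part of the receptor-gene level in the Acan intron values was not tested beyond this subtraction.

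The exon level stood in a different ratio to the intron level from gene to gene. In NPC, the pooled exon RPKM divided by the mean intron RPKM was 8.08 for Bcan, 28.2 for Vcan, 33.8 for Ptprz1, 42.8 for Tnc and 65.5 for Ncan. Over 7660 genes of at least 10 RPKM in NPC exons, the median ratio was 15.3, with quartiles of 9.19 and 26.1. The place of Bcan, Vcan and Ptprz1 among all genes depended on the replicate. With the introns of NPC replicate 1 alone, Bcan was at 16, inside quartiles of 11.2 and 31.5, and Vcan (48.9) and Ptprz1 (55.2) were above them. With those of replicate 2 alone, Bcan was at 5.41, below quartiles of 7.52 and 24.8, and Vcan (19.8) and Ptprz1 (24.3) lay inside them. Tnc (58.3 and 33.8) and Ncan (92.9 and 50.6) were above the upper quartile with either replicate. No ratio is given for Cspg5, whose introns rest on 12 and 27 reads in NPC and lay below the receptor-gene median in replicate 1. Exon and intron values were scaled separately, so the ratios cannot be read as numbers of transcripts. The receptor-gene level of NPC replicate 1 (median 0.748 RPKM) was not subtracted for them. It is a larger part of a low intron level than of a high one, which limits the comparison of ratios between genes.

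The enzymes that build chondroitin sulfate chains were higher in NPC in more cases than lower in exons. The counts of this list and of those that follow stand against 32.3% higher and 33.9% lower over all tested genes in exons, and 13.2% and 34.0% in introns, where the median was -0.43. Of 22 listed genes, 19 were tested in exons, and 11 were called higher, 1 lower and 7 neither by the authors' deposited table, with a median log2 fold change of 1.02 against -0.07 over all genes. The sulfotransferases Chst7 (0.608 and 44.5 RPKM) and Chst11 (1.26 and 29.0) rose by 6.02 and 4.37 on the log2 scale in the authors' deposited table. Csgalnact1, which starts the chain, rose from 2.58 to 59.1 RPKM (4.36 in the authors' deposited table). The gene called lower was Dse, the epimerase that turns chondroitin into dermatan sulfate, at 68.1 and 13.1 RPKM (-2.54 in the authors' deposited table). On introns 10 were tested, with 1 called higher and 2 lower in limma (median -0.15), Dse among the latter (-0.71, adjusted p = 0.011).

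Genes of hyaluronan and its binding proteins showed no common direction. Of 7 tested in exons, 2 were called higher and 1 lower in the authors' deposited table (median -0.25). The hyaluronan receptor Cd44 (8.78 and 31.1 RPKM) and Tnfaip6 (6.82 and 20.1) were higher, and Hmmr (169 and 60.6), a hyaluronan binder that also serves the mitotic spindle, was lower. On introns 4 were tested, with 1 higher and 2 lower (median -0.41).

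**Figure D4:**
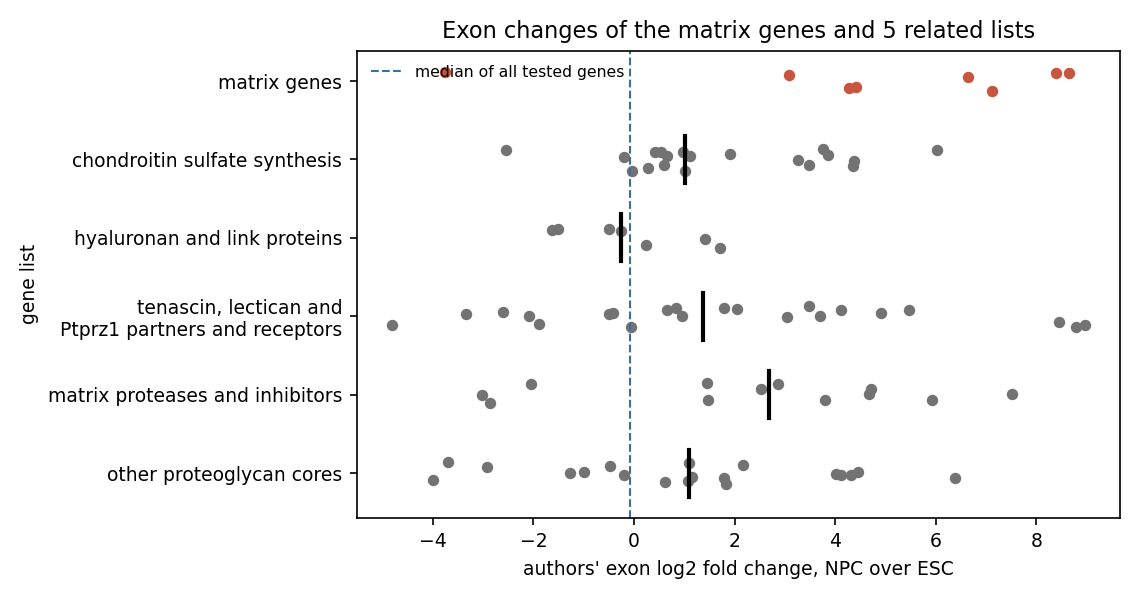
The authors' exon log2 fold change of NPC over ESC for each tested gene. Red points are the 8 tested matrix genes, grey points the genes of 5 related lists, with height scattered within a row. Black bars are list medians and the broken line is the median of all 12509 tested genes (-0.07). Among the matrix genes only Acan lies left of that line.

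Binding partners and receptors of the tenascins, lecticans and Ptprz1 were mixed, with several of the largest increases. Of 22 tested, 13 were called higher and 5 lower in the authors' deposited table (median 1.38). Cntn1, an adhesion protein that binds Ptprz1 and Tnr, was at 0.232 and 130.5 RPKM (8.97 in the authors' deposited table). Ptn, pleiotrophin, a secreted ligand of Ptprz1, was at 3.96 and 1949 RPKM (8.79 in the authors' deposited table). The integrin Itgb8 was at 0.272 and 108 RPKM (8.45 in the authors' deposited table). Erbb3 (13.6 and 0.538 RPKM), the matrix protein Fbln2 (13.6 and 2.44) and Mdk, midkine, another ligand of Ptprz1 (44.8 and 11.4), were called lower. The 2 ligands thus went opposite ways. On introns 12 were tested, with 7 higher and 2 lower in limma (median 0.90), and Ptn (3.12, adjusted p = 7.4e-05) and Mdk (-1.33, adjusted p = 0.00098) again lay on either side.

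Among matrix proteases, several of which cut lecticans, and their inhibitors, 16 had exon values and 12 passed the filter. Of these 12, 9 were called higher and 3 lower in the authors' deposited table (median 2.70). Adamts4, a protease that cleaves Bcan and Acan, was at 0.796 and 23.2 RPKM, Mmp16 at 0.200 and 13.8, and the inhibitor Timp4 at 0.114 and 23.7, with log2 fold changes of 4.71, 5.92 and 7.51 in the authors' deposited table. Timp1 (49.2 and 6.94 RPKM) and Mmp2 (12.5 and 3.32) were lower. Adamts8, at 4.17 and 0.572 RPKM, was the other gene called lower, named after its value was seen. On introns 6 were tested, with 5 higher and 1 lower in limma (median 0.99).

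Other proteoglycan cores split. Of 19 tested in exons, 9 were called higher and 4 lower in the authors' deposited table (median 1.1). Prelp (0.241 and 22.6 RPKM), the syndecan Sdc3 (2.99 and 56.8) and the amyloid precursor App (19.5 and 348) were higher. Col18a1, a basement membrane collagen (114 and 7.68 RPKM), the small proteoglycan Bgn (13.5 and 1.19) and the glypican Gpc4 (13.7 and 1.92) were lower. On introns 7 were tested, with 2 higher and 3 lower in limma (median -0.36).

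The labelled cell types were checked against markers, since several of the 9 genes are also made by fibroblasts, cartilage, astrocytes or oligodendrocyte precursors. Of 14 listed neural progenitor markers, 12 had exon values, while Sox1 and Sox2 were not found. All 12 were called higher in the authors' deposited table (summed exon level 473 RPKM in ESC against 14894 in NPC). All 10 pluripotency markers were called lower there (6146 and 21.1). Vim led the progenitor markers in ESC (393 RPKM) and Fabp7 in NPC (10684). Dppa5a led the pluripotency markers in ESC (1606 RPKM) and Klf4 in NPC (6.12). Astrocyte markers summed to 115 and 1781 RPKM (7 higher and 1 lower of 9), led by Gja1 in ESC (99.7) and Sparcl1 in NPC (816). Oligodendrocyte lineage markers summed to 30.5 and 281 RPKM (3 higher and 1 lower of 5). Myrf led these in ESC (11.9 RPKM), and Cnp (203) made up most of the NPC sum. In NPC, 7 of the 11 were below 1 RPKM, Sox10 (0.213) among them. Neuron markers summed to 283 and 428 RPKM (2 higher and 4 lower of 7, median log2 fold change -2.34). Stmn2 led these in ESC (160.5 RPKM), and Map2 (371) made up most of the NPC sum.

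Fibroblast markers, which the feeders could add to the ESC samples, summed to 204 RPKM in ESC against 108 in NPC, with 4 called higher and 9 lower of 17 in the authors' deposited table. Fn1 led in ESC (98.4 RPKM) and Fbn1 in NPC (35.1), and none of the 17 was at 0 in either cell type. Their part in the ESC levels of Vcan, Tnc and Acan, and so in the lectican shares in ESC, was not tested. Cartilage markers summed to 12.9 and 137 RPKM (5 higher and 2 lower of 9), led by Col9a2 in ESC (3.22) and Sox6 in NPC (78.5). Sox6 and Col9a3 (35.5) made up most of the NPC sum. In NPC, 5 of the 12 listed cartilage markers were below 1 RPKM, Col2a1 and Matn1 among them. The median exon log2 fold change of the 9 tested cartilage markers was 2.98 in the authors' deposited table, against -3.76 for Acan. Called higher were Sox5, Sox6, Col9a1, Col9a3 and Col11a1. Like Acan, Matn1 (2.95 and 0.160 RPKM, -4.35) and Col2a1 (2.41 and 0.787 RPKM, -1.61) were called lower in the authors' deposited table.

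For each of the 9 genes, the most similar gene was sought over 6 values (exon RPKM of both cell types and 4 intron RPKM, as log2 of the value plus 1) among 17956 other genes. The nearest gene was Smad5 for Vcan (Euclidean distance 0.24, with exon levels of 18.4 and 162 RPKM), Cpd for Tnc (0.45, 9.27 and 204) and Nrep for Ncan (0.52, 2.32 and 322). Capn6 was closest to Ptprz1 (0.68, 0.858 and 361 RPKM) and Nacc2 to Cspg5 (0.58, 3.43 and 77.6). Bcan had the most distant neighbour, Adcyap1r1 (1.65, 0.858 and 281 RPKM), whose NPC introns were at 8.33 and 21.5 RPKM against 18 and 53.2. Aldh1a2 was closest to Acan (0.14), Abca8a to Tnr (0.14) and Gm11149 to Hapln1 (0.24).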

How the data were processed

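RNA from 8 libraries (2 biological replicates of ESC and of NPC, each with 2 technical libraries) was used as 2 deposited tables. The exon table holds log2 fold changes, adjusted p-values and RPKM per cell type over all libraries, computed by the authors; per the submitters' processing notes, DESeq2 1.10.0 and build mm9 were used. The intron table holds 1 deposited value per biological replicate; the RPKM unit was inferred from the values, which were whole multiples of 1 read per gene within 0.001 reads for all 18393 named genes above 0. Column denominators were 5767704 and 6500767 reads in ESC and 5792056 and 5186790 in NPC, and each of the 9 genes had a single fitting intron length. For aligner, counter, strand setting and annotation, nothing is given in the sources used here. Rows without a gene name were left out (84 exon, 64 intron).

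The authors' exon results were read as deposited where the mean of both cell types reached 1 RPKM. Introns with a mean of at least 1 RPKM were tested with limma 3.58.1 (R 4.3.3) on log2(RPKM + 1). The fit used a mean-variance trend and Benjamini-Hochberg adjustment at 0.05, and replicate numbers were not paired. A check on simulated data came first. Its counts had a spread setting common to all genes and no receptor-gene level. It therefore cannot show how the fit behaves on these NPC replicates. The genes and lists were chosen with earlier results of these data known. Named from each related list were the up to 3 called genes with the largest change each way and at least 10 RPKM. From each marker list, the highest marker in each cell type was named. Other markers were named after their values were seen. No table of protein sequences was used here.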

Additional observations from a re-analysis of the deposited data

How the results depend on the processing

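Leaving out 1 replicate at a time gave 488 to 2344 intron genes called higher and 1106 to 5295 called lower in limma. With all 4 samples, these numbers were 1167 and 2998. Of the 5 intron-tested matrix genes, 3 to 5 were called higher when 1 replicate was left out. The lone sample is then assumed to vary like the other group. Intron genes called higher numbered 2260 with the columns scaled to the same median, 2083 with a mean of at least 0.1, 753 with no trend, 418 with the receptor-gene level subtracted, and 655 (with 907 lower) by voom on genes with a mean of at least 10 recovered reads. That voom fit called 3 of the 9 matrix genes higher (Ptprz1, Tnc and Hapln1). Its filter differs from that of the 8811 genes, and the share of all its genes called is not given here. In it Bcan (adjusted p = 0.0616), Ncan (0.051), Tnr (0.057) and Vcan (0.0748) missed the threshold, as did Acan (0.33) and Cspg5 (0.39). Over all alternatives the adjusted p of Ncan ran from 5.77e-16 to 0.051. The voom fits, the receptor-gene subtraction and the exon over intron ratios of single replicates were chosen after seeing the data. Subtracting the median of genes at 0 exon RPKM changed nothing, since that median was 0 in each column. A planned fit of count models to the recovered reads was not run, and voom took its place. With a mean of at least 10 RPKM, 2534 exon genes were called higher (4040 otherwise) and 0 matrix genes lower. As a log2 ratio of pooled RPKM + 1, the exon changes kept their direction in all 9 genes, with Tnr at 2.81 (below Tnc at 4.27), Hapln1 at 0.94 and Acan at -1.58. The causes of these shifts were not tested. With the replicate number as a block, 1145 intron genes were called higher and 2632 lower, and no matrix gene changed its call; deviations of same-numbered replicates correlated at 0.019 over 8811 genes, and the numbers were not taken as pairs. No sign change was seen for the 5 intron-tested genes under the 15 alternatives. Exon values are pooled, so no replicate could be left out, and intron levels near 1 RPKM in NPC replicate 1 cannot be told apart from its receptor-gene level.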
